A study of Mus musculus with 27 samples.

Results

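The 8 mature microRNAs (miRNAs) described here are miR-137-3p, miR-138-5p, miR-138-2-3p, miR-153-3p, miR-218-5p, miR-129-5p, miR-129-1-3p and miR-129-2-3p. They were chosen by name, as products of 5 miRNA families known for their work at synapses, out of 844 miRNAs listed in the 27 small-RNA libraries of the study. All libraries came from C57BL/6 mice, and ages and sexes were not given in the sources used here. The study had 4 parts. The first held suprachiasmatic nucleus (SCN, the hypothalamic clock), hypothalamus and cortex, with 2 libraries each. The next was a course of the SCN over 11 zeitgeber times (ZT), from ZT2 to ZT42 every 4 h, with 1 library per time. The neuron part held SCN neurons labelled AVP, VIP or CCK, after the peptides, with 2 libraries each, and the last held SCN at circadian time (CT) 18, with 2 libraries labelled CTRL and 2 labelled LP. What LP stands for was not given, though the series design names light-response miRNAs. How the neurons were collected was not given in the sources used here, and neither was whether replicate libraries came from separate animals, so p-values measure only the spread between these libraries.

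miRNAs are short RNAs that bind partly matching sites in messenger RNAs, mainly through the seed near their 5′ end, and lower the output of those messages. In neurons, miR-137 is known for targeting synaptic vesicle genes, miR-138 for limiting dendritic spine size, and miR-153 for targeting vesicle release genes such as Snap25. miR-218 is known for shaping motor neuron identity and the excitability of neurons, and miR-129 for targeting the potassium channel gene Kcna1. Each precursor hairpin yields a 5p and a 3p product, named arms, of which 1 is often far more abundant than the other.

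The mature sequences show how the members relate: arms of 1 hairpin pair with each other in part, while their seeds, on which target choice rests, differ. RefSeq (build GRCm38.p6) held 7 of the 8 members. They are printed 5′ to 3′ with the seed, bases 2 to 8, in capitals, and the 7 seeds were all different.

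miR-137-3p: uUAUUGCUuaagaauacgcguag
miR-138-5p: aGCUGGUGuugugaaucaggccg
miR-138-2-3p: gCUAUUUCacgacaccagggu
miR-153-3p: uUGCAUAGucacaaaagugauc
miR-218-5p: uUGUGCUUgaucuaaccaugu
miR-129-5p: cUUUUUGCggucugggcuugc
miR-129-2-3p: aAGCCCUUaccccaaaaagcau
miR-218-1-3p: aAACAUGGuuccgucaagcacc

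The last sequence, the 3p arm of the Mir218-1 hairpin, is no member and is shown because its level bears on that of miR-218-5p at CT18. In GRCm38, Mir137 lies on chromosome 3 at 118433857 to 118433929, in an exon of the noncoding gene Gm26871. Mir153 lies on chromosome 12 at 117250817 to 117250885, in an intron of Ptprn2. The other 3 families each have 2 loci. Mir138-1 is on chromosome 9 at 122682876 to 122682974, in an exon of the pseudogene Gm47135, and Mir138-2 is on chromosome 8 at 94324311 to 94324381, in an exon of the noncoding gene C78859. Mir218-1 is on chromosome 5 at 48223942 to 48224051, in an intron of Slit2, and Mir218-2 is on chromosome 11 at 35616816 to 35616925, in an intron of Slit3. Mir129-1 is on chromosome 6 at 29022619 to 29022691, in an exon of the noncoding gene Gm3294, and Mir129-2 is on the minus strand of chromosome 2 at 94241364 to 94241453, in an intron of Mir670hg. Mature miR-138-5p, miR-218-5p and miR-129-5p each come from both loci with 1 sequence, so their counts cannot be assigned to a locus, whereas miR-138-2-3p, miR-129-1-3p and miR-129-2-3p each name 1 of them.

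Levels are given as CPM, reads per 1e+06 miRNA reads, which is the deposited value divided by 10. The libraries held between 469808 and 5133920 reads assigned to miRNAs, and 3 reads, the limit that a count of 0 allows, were worth 0.585 to 1.70 CPM in tissue libraries and 1.07 to 6.39 CPM in neuron libraries. These floors cover counting error only. Replicates of a tissue group or CT18 group differed little, with Pearson r of log2 values of 0.98 to 0.994 across miRNAs, while neuron replicates had r of 0.576 to 0.648. The neuron libraries listed 215 to 312 miRNAs and the others 552 to 635. Since small-RNA libraries hold no messenger RNA, the labels AVP, VIP and CCK could not be checked against the peptides' transcripts. The labels give no batch for the 4 parts, which may each be one, so no test was run across them.

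**Figure D1:**
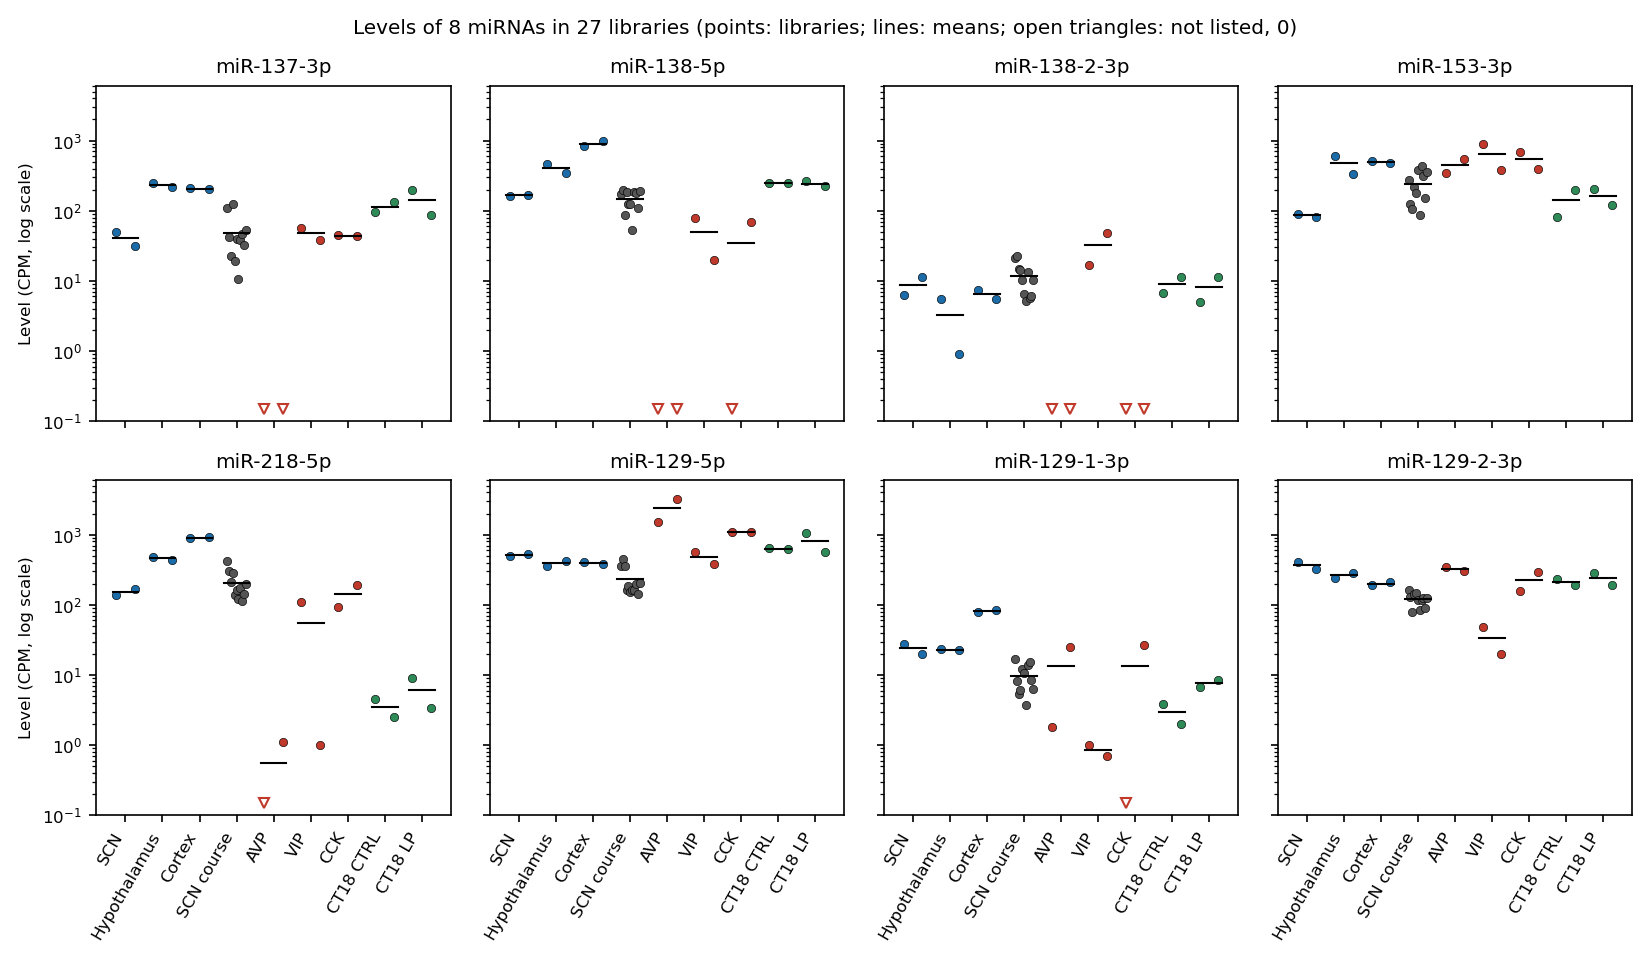
Level of the 8 members in each of the 27 libraries (points, CPM on a log axis), by group, with group means as lines and open triangles for libraries that do not list the miRNA. Seen across groups, miR-137-3p, miR-138-5p and miR-218-5p were at 0 or 1 read in both AVP libraries, and miR-218-5p was at 2.5 to 9.0 CPM in the 4 CT18 libraries.

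In the first part of the study, SCN libraries held less of miR-137-3p, miR-138-5p, miR-153-3p and miR-218-5p than both hypothalamus and cortex. They held slightly more of miR-129-5p and miR-129-2-3p. The members that were low in SCN were 2.42-fold to 5.69-fold lower than in hypothalamus and 5.06-fold to 5.90-fold lower than in cortex. In the SCN course, a separate part, miR-129-2-3p was lower than in hypothalamus or cortex, at 78.4 to 164.1 CPM. miR-129-5p there had a median of 187.8 CPM and a highest value of 448.2 CPM. miR-153-3p reached 440.6 CPM in the course, above Hypothalamus 2 at 338.9 CPM. These parts were not compared by a test. The sum of all 8 members was 1336 and 1381 CPM in SCN, 2074 and 2420 CPM in hypothalamus, and 3141 and 3263 CPM in cortex. In a bulk sample, fewer cells that make a miRNA and less of it per cell cannot be told apart.

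miR-137-3p, which represses messages of the vesicle machinery, was at 50.3 and 31.8 CPM in SCN, 248.5 and 219.0 CPM in hypothalamus and 213.3 and 201.9 CPM in cortex. Both SCN libraries lay far below all 4 others, and hypothalamus and cortex lay side by side. The log2 difference of SCN was -2.54 ± 0.21 (SE) against hypothalamus, with an adjusted p of 9.47e-06 by limma, and -2.37 ± 0.21 against cortex, with an adjusted p of 5.99e-06 by limma. Between hypothalamus and cortex it was 0.17, an adjusted p of 0.526 by limma, and turned to -0.25 with median-ratio scaling and -0.23 with quantile scaling.

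miR-153-3p showed the same order with a wider spread in hypothalamus. It was at 91.3 and 82.0 CPM in SCN, 604.4 and 338.9 CPM in hypothalamus and 514.6 and 473.2 CPM in cortex. The SCN was lower by a log2 difference of -2.39 ± 0.24 against hypothalamus, an adjusted p of 2.15e-05 by limma, and -2.51 ± 0.24 against cortex, an adjusted p of 7.87e-06 by limma. The hypothalamus libraries lay on either side of the cortex pair, and these 2 tissues differed by -0.12 ± 0.24, an adjusted p of 0.667 by limma.

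miR-138-5p and miR-218-5p, in contrast, formed steps in which all 3 tissues differed. miR-138-5p, which limits the size of dendritic spines, was at 163.0 and 169.6 CPM in SCN, 457.6 and 345.7 CPM in hypothalamus and 833.7 and 984.0 CPM in cortex. No libraries of neighbouring tissues overlapped. The SCN differed from hypothalamus by a log2 of -1.26 ± 0.16 (adjusted p = 0.000118 by limma) and from cortex by -2.44 ± 0.16 (adjusted p = 7.87e-07 by limma), and hypothalamus differed from cortex by -1.19 ± 0.16 (adjusted p = 0.000234 by limma). In rank of mean level among the miRNAs listed in the tissue, miR-138-5p stood 157 in SCN and 71 in cortex.

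miR-218-5p was at 138.1 and 170.5 CPM in SCN, 479.0 and 441.7 CPM in hypothalamus and 898.8 and 922.8 CPM in cortex. Each pair of replicates was tight against the steps between tissues. The SCN was lower by -1.58 ± 0.14 against hypothalamus (adjusted p = 1.25e-05 by limma) and -2.57 ± 0.14 against cortex (adjusted p = 2.84e-07 by limma), and hypothalamus was lower than cortex by -0.99 ± 0.14 (adjusted p = 0.000294 by limma). It ranked 160 in SCN and 70 in cortex.

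The miR-129 arms did not follow that order. miR-129-5p, whose known targets include the potassium channel gene Kcna1, was the most abundant member in SCN, at 492.8 and 524.7 CPM, with 357.6 and 422.3 CPM in hypothalamus and 403.6 and 380.7 CPM in cortex. The SCN was 1.30-fold higher than either, a log2 of 0.39 ± 0.13 against hypothalamus (adjusted p = 0.0262 by limma) and 0.38 ± 0.13 against cortex (adjusted p = 0.0254 by limma). Both calls were fragile. Against cortex the difference was 0.21 (adjusted p = 0.188) with median-ratio scaling and 0.22 (adjusted p = 0.178) with quantile scaling, both by limma, and leaving out SCN 2, Cortex 1 or Cortex 2 ended the call, with adjusted p up to 0.122 by limma. Against hypothalamus, limma's adjusted p was 0.0678 without SCN 2 and 0.246 without Hypothalamus 1.

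miR-129-2-3p, the 3p arm of the second miR-129 hairpin, was at 411.2 and 325.9 CPM in SCN, 244.1 and 283.0 CPM in hypothalamus and 190.3 and 209.1 CPM in cortex. The 3 tissues did not overlap, with SCN highest. The SCN was 1.85-fold higher than cortex, a log2 of 0.88 ± 0.16 (adjusted p = 0.000697 by limma), and 1.40-fold higher than hypothalamus, 0.48 ± 0.16 (adjusted p = 0.0228 by limma). The second of these calls was lost without SCN 1 (adjusted p = 0.112 by limma), without Hypothalamus 1 (0.154) and with no filter on low values (0.0566). Hypothalamus and cortex differed by 0.40 ± 0.16 (adjusted p = 0.0558 by limma).

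miR-129-1-3p, from the other hairpin, had the opposite leaning and was high in cortex, with 79.6 and 85.2 CPM against 28.0 and 20 CPM in SCN and 23.2 and 22.5 CPM in hypothalamus. The cortex pair lay above all others, while the hypothalamus values fell between the 2 SCN values. SCN was 3.43-fold lower than cortex, a log2 of -1.79 ± 0.23 (adjusted p = 5.95e-05 by limma), and hypothalamus 3.61-fold lower, -1.85 ± 0.23 (adjusted p = 0.000117 by limma). SCN and hypothalamus differed by 0.05 ± 0.23 (adjusted p = 0.86 by limma).

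miR-138-2-3p, the less abundant arm of the second miR-138 hairpin, was near the floor in tissue. It was at 6.2 and 11.4 CPM in SCN, 5.6 and 0.9 CPM in hypothalamus, the latter resting on 2 reads, and 7.5 and 5.6 CPM in cortex. It missed the filter, which asked for 10 CPM or more in 2 or more libraries, and was not tested between tissues.

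Of the 7 members tested between SCN and hypothalamus, 2 rose and 4 fell in SCN, beside 28% and 42.9% of all 378 tested miRNAs, in all 70.9% called. Against cortex, 2 rose and 5 fell in SCN, beside 41.3% and 38.9%, in all 80.2%. Between hypothalamus and cortex, 3 were lower in hypothalamus and none was higher, beside 16.4% and 41.8%, in all 58.2%. The libraries of the 2 tissues did not overlap for 6 of 7 members in SCN against hypothalamus, 7 of 7 in SCN against cortex and 5 of 7 in hypothalamus against cortex, beside 87.3%, 90.2% and 83.9% of all tested miRNAs. Calls were thus common among all miRNAs, and the members' counts are to be read against that background. The members' median log2 difference was -1.26, -2.37 and -0.12 in these comparisons, beside -0.29, 0.06 and 0.41 over all tested miRNAs. Median-ratio scaling moved the median of all miRNAs by 0.26, -0.16 and -0.42, which is less than the SCN deficits of miR-137-3p, miR-138-5p, miR-153-3p and miR-218-5p.

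Markers of other cells also differed between the tissues. The summed level of vascular miRNAs was 3910 to 3933 CPM in SCN, 11100 to 11818 CPM in hypothalamus and 11013 to 11550 CPM in cortex. That of choroid plexus and ciliated cell miRNAs was 8663 to 8914 CPM in SCN, 7242 to 7452 CPM in hypothalamus and 1177 to 1337 CPM in cortex. Most of it was miR-204-5p, with means of 7478 CPM in SCN and 5234 CPM in hypothalamus. The ciliated cell miR-34c-5p went the other way, with 1043 CPM in SCN and 1988 CPM in hypothalamus. Of the 5 tested in SCN against hypothalamus, 3 were higher, 1 was lower and 1 did not pass. Oligodendrocyte miRNAs summed to 1004 to 1551 CPM in SCN, 3566 to 4185 CPM in hypothalamus and 1458 to 1953 CPM in cortex. Their part in the members' differences was not tested.

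**Figure D2:**
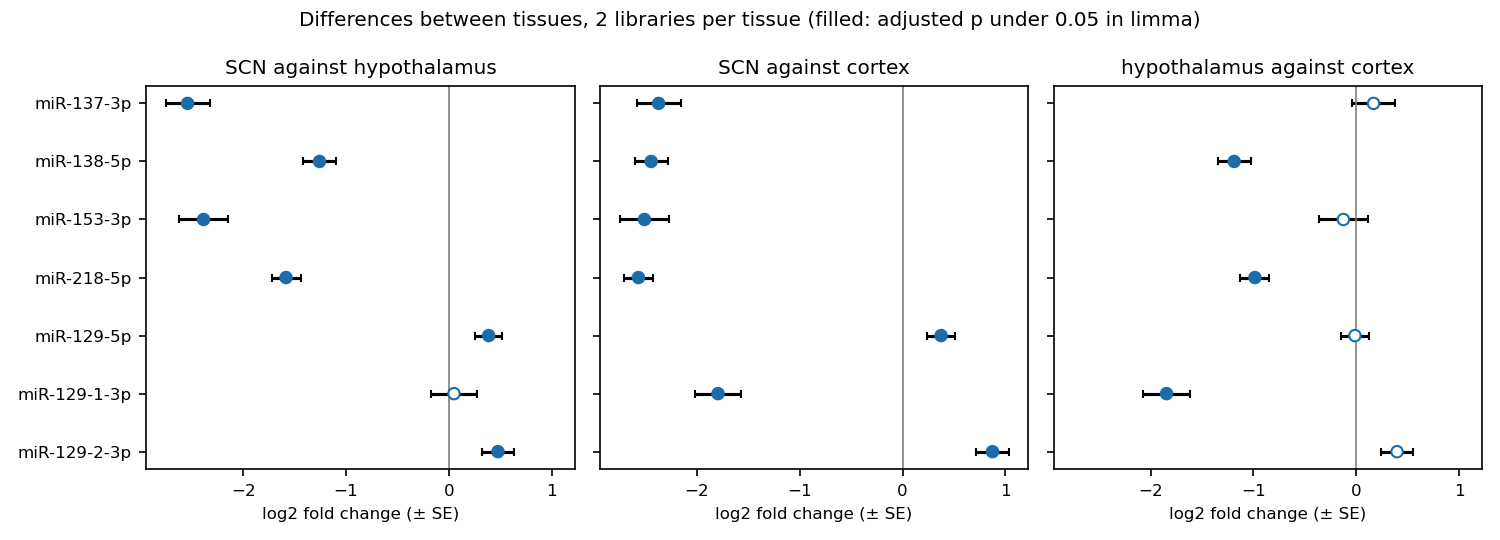
Log2 fold change of each tested member (points) with its standard error (bars) in SCN against hypothalamus, SCN against cortex and hypothalamus against cortex, with filled points where limma's adjusted p was under 0.05. miR-137-3p, miR-138-5p, miR-153-3p and miR-218-5p lie left of 0, at -1.26 or lower, in both SCN comparisons, and miR-129-5p and miR-129-2-3p lie right of 0, between 0.38 and 0.88.

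The balance between members differed as well. The 3 miR-129 products made up 65.2% to 67.5% of the members' sum in SCN, 25.8% to 35.1% in hypothalamus and 20.7% to 21.4% in cortex. Among the 2 miR-129 3p arms, miR-129-1-3p took 5.78% to 6.38% in SCN, 7.37% to 8.68% in hypothalamus and 29.0% to 29.5% in cortex, so the Mir129-1 product was a larger part in the 2 cortex libraries. The ratio of miR-129-5p to the sum of both 3p arms was 1.12 to 1.52 over the 6 tissue libraries and showed no separation of tissues. miR-138-5p exceeded miR-138-2-3p by 14.9-fold to 26.3-fold in SCN, 81.7-fold to 384-fold in hypothalamus and 111-fold to 176-fold in cortex. The hypothalamus ratios rest on only 13 and 2 reads of miR-138-2-3p, the 2 reads giving 384-fold. Ratios were described and not tested.

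In the SCN neurons, miR-137-3p was at 0 in AVP and listed in every VIP and CCK library. No other member was called in AVP against both other types. The AVP libraries held no reads of miR-137-3p, miR-138-5p and miR-138-2-3p and at most 1 read of miR-218-5p. CCK libraries also lacked miR-138-2-3p, CCK 1 lacked miR-138-5p, and VIP 2 had 3 reads of miR-218-5p. AVP libraries held more miR-129-5p and miR-129-2-3p than VIP libraries, but neither was called against CCK (adjusted p of 0.219 and 0.593 by limma). All 8 members passed the filter in this part of the study, miR-138-2-3p through the VIP libraries alone. miR-137-3p, miR-138-5p and miR-218-5p passed it through VIP and CCK libraries alone. Of these 8, 2 rose and 2 fell in AVP against VIP, beside 18% and 14.8% of 305 tested miRNAs, in all 32.8%. AVP against CCK gave 1 member lower and none higher, beside 14.1% and 2.62%, in all 16.7%. VIP against CCK gave 1 higher and 1 lower, beside 8.2% and 21.6%, in all 29.8%. 1 of the 2 that fell in AVP against VIP, and the 1 higher in VIP against CCK, was miR-138-2-3p. The filter admitted it through VIP alone, so these 2 calls are no evidence of a difference. The other that fell against VIP, and the 1 lower in AVP against CCK, was miR-137-3p. Libraries did not overlap for 6, 4 and 3 of the 8 members in these comparisons, beside 64.6%, 58% and 62.6% of all tested miRNAs. The 3 comparisons share libraries, so their counts are not independent.

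miR-137-3p was at 0 and 0 CPM in AVP, 57.6 and 38 CPM in VIP and 44.7 and 43.1 CPM in CCK. AVP had none and the other types overlapped. Log2 differences would depend on the value given to a 0, so bounds are given instead. miR-137-3p passed the filter only through VIP and CCK, where it was high, so its calls are read as descriptions. Against the floor of 3 reads over the AVP group, it was at least 23.0-fold higher in VIP (adjusted p = 0.008 by limma) and at least 21.2-fold higher in CCK (adjusted p = 0.0117 by limma). The call against CCK was lost with quantile scaling (adjusted p = 0.12 by limma) and without CCK 1 or CCK 2, with adjusted p up to 0.109 by limma.

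miR-138-2-3p was listed in VIP alone, at 16.7 and 48.8 CPM, with 0 in both AVP and both CCK libraries. VIP was at least 15.8-fold higher than the floor of the AVP group and at least 10.4-fold higher than that of the CCK group. These bounds are descriptions, since it passed the filter only because it was high in VIP. Its partner arm miR-138-5p was at 0 and 0 CPM in AVP, 79.3 and 19.7 CPM in VIP and 0 and 69.8 CPM in CCK. The CCK replicates disagreed, and none of its 3 comparisons passed, with adjusted p of 0.12 for AVP against VIP and 0.438 for AVP against CCK by limma. The VIP replicates disagreed on the balance of the arms, with a ratio of miR-138-5p to miR-138-2-3p of 4.75 in VIP 1 and 0.404 in VIP 2.

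miR-218-5p varied between replicates of a type. It was at 0 and 1.1 CPM in AVP, the latter a single read, 111.0 and 1.0 CPM in VIP, the latter 3 reads, and 93.7 and 188.9 CPM in CCK. AVP and VIP overlapped, and CCK lay above AVP. CCK had 205 times the level of AVP, with a 95% counting interval of 36.3 to 8172, and limma's adjusted p was 0.118. For VIP over AVP the ratio was 81.3, with an interval of 14.5 to 3223 and an adjusted p of 0.232 by limma. That ratio rests on VIP 1, which held 312 of the 315 VIP reads, while the 1.0 CPM of VIP 2 was no more than the 1.1 CPM of AVP 2. Both intervals pool the reads of a type and leave out the spread between its libraries.

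Absence from AVP was uncommon among miRNAs that whole SCN held in quantity. Of 182 miRNAs with a mean of at least 100 CPM in SCN tissue, 17, or 9.34%, were at 0 in both AVP libraries, among them miR-138-5p. The same count was 8, or 4.4%, in VIP and 2, or 1.1%, in CCK. miR-137-3p and miR-138-2-3p, with SCN means of 41.05 and 8.8 CPM, lay under that limit, so these shares do not cover them. Over all levels, 283 miRNAs were above 0 in AVP and 674 in SCN tissue. Neuron libraries differed in depth, and their part in these zeros was not tested.

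miR-129-5p was the highest member in each AVP and CCK library. It was at 1535.3 and 3190.0 CPM in AVP, 573.5 and 387.5 CPM in VIP and 1084.5 and 1090.7 CPM in CCK. The types did not overlap, in the order AVP, CCK, VIP. AVP was 4.92-fold higher than VIP, a log2 of 2.23 ± 0.43 (adjusted p = 0.0194 by limma), a call lost without VIP 2 (adjusted p = 0.0758). AVP and CCK differed by 1.02 ± 0.43 (adjusted p = 0.219 by limma) and VIP and CCK by -1.21 ± 0.43 (adjusted p = 0.113 by limma), so the CCK neighbours in that order did not pass. In rank of mean level, miR-129-5p stood 35 among 283 miRNAs in AVP.

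miR-129-2-3p was low in VIP, at 48.4 and 19.7 CPM, against 345.1 and 306.6 CPM in AVP and 155.5 and 297.8 CPM in CCK. AVP lay above both other types. It was 9.57-fold higher in AVP than in VIP, a log2 of 3.39 ± 0.66 (adjusted p = 0.0194 by limma), and 6.66-fold lower in VIP than in CCK, -2.80 ± 0.66 (adjusted p = 0.0414 by limma). The former was lost without AVP 1 (adjusted p = 0.0739 by limma), without AVP 2 (0.0514) and with only the 2 groups in the fit (0.0501). The latter was lost with median-ratio scaling (0.0801), quantile scaling (0.105), a filter at 100 CPM (0.0503), the 2 groups alone (0.0696) and without any 1 library other than VIP 1, with adjusted p up to 0.213.

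miR-153-3p, which acts on vesicle release genes, was present in all 6 neuron libraries, at 350.7 and 540.4 CPM in AVP, 900.3 and 378.6 CPM in VIP and 683.9 and 392.3 CPM in CCK. The types overlapped throughout. AVP against VIP was -0.42 ± 0.58 (adjusted p = 0.596 by limma), and the comparisons with CCK had log2 differences of -0.25 for AVP and 0.17 for VIP. miR-129-1-3p was at 1.8 and 25.3 CPM in AVP, 1.0 and 0.7 CPM in VIP and 0 and 26.7 CPM in CCK. Values of 1.8, 1.0 and 0.7 CPM rested on 1, 3 and 2 reads, so its types could not be ordered, and AVP against VIP gave 2.89 ± 3.11 (adjusted p = 0.502 by limma).

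Against these differences, the choroid plexus and ciliated cell miRNAs summed to 83.8 to 290 CPM in AVP, 7564 to 9453 CPM in VIP and 1500 to 1914 CPM in CCK. In VIP this was almost all miR-204-5p, at 7563 to 9453 CPM, and the other 2 types held more miR-34c-5p, a ciliated cell miRNA, at 7.4 to 208 CPM in AVP, 0 to 0.7 CPM in VIP and 194 to 255 CPM in CCK. The oligodendrocyte sum was 45.1 to 134 CPM in AVP, 756 to 1249 CPM in VIP and 631 to 742 CPM in CCK, all from miR-338, since miR-219-5p and miR-219-2-3p were at 0 in all 6 libraries. Vascular miRNAs summed to 3.3 to 177 CPM over the 6 libraries. The part of other cells in the members' differences was not tested.

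**Figure D3:**
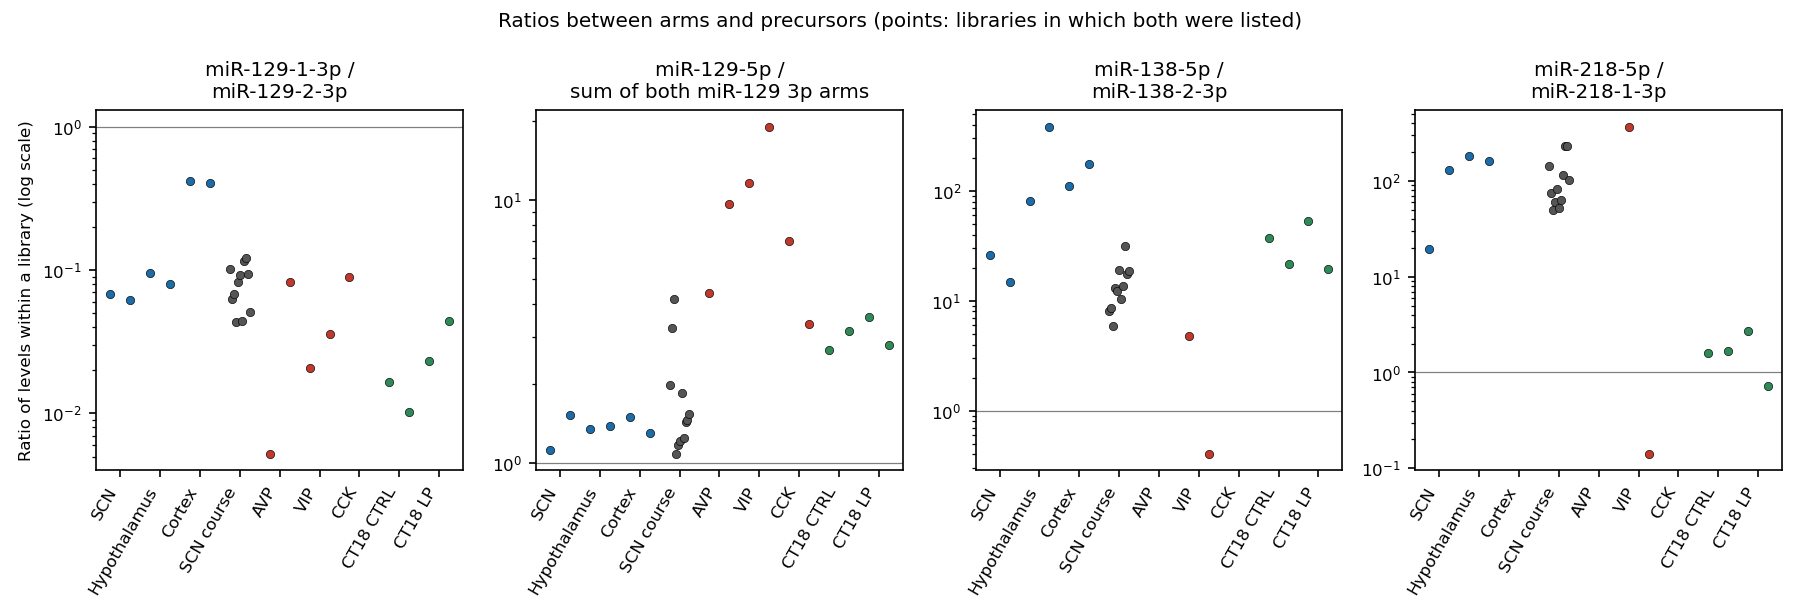
Ratio between arms of the same family in each library (points, log axis), by group, where both arms were listed. The ratio of miR-129-5p to both 3p arms lies at 1.12 to 1.52 in SCN, hypothalamus and cortex tissue and 3.36 to 19.0 in neurons, and that of miR-218-5p to miR-218-1-3p lies at 0.723 to 2.73 at CT18.

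The balance of the miR-129 arms thus lay more toward the 5p arm in the neuron libraries than in the first part of the study. The ratio of miR-129-5p to the sum of its 3p arms was 4.43 and 9.61 in AVP, 11.6 and 19.0 in VIP and 6.97 and 3.36 in CCK. In the CT18 libraries it lay between 2.68 and 3.57. All 10 of these values exceeded the highest ratio in the 6 libraries of SCN, hypothalamus and cortex tissue, but not those of the SCN course, which ran from 1.08 to 4.21. Because the parts of the study were not compared by a test, that difference is a description.

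Along the SCN course, no member had a call for a 24 h rhythm, beside 0% of the 357 tested miRNAs. The fit of cosine and sine terms with limma had 8 residual degrees of freedom, and 6 of the 357 miRNAs, none of them a member, had an unadjusted p under 0.05. miR-129-5p had the lowest p of the members, 0.213, with an amplitude of 0.38 on the log2 scale, a fitted peak at ZT 6.03 h and an adjusted p of 0.95 by limma. The other amplitudes ranged from 0.11 to 0.32, with adjusted p of 0.95 to 0.969 by limma. With 1 library per time, a time and its library cannot be told apart.

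miR-137-3p varied most of the members, with its lowest value of 10.5 CPM at ZT26, a median of 39.5 CPM and its highest of 123.4 CPM at ZT14. High values at ZT2, 111.2 CPM, and ZT14 stood beside 41.8 CPM at ZT6, 23.0 CPM at ZT10 and 19.1 CPM at ZT18. Its coefficient of variation (CV) was 73.8%, above 97.5% of tested miRNAs. Libraries 24 h apart, at the same phase, differed by a mean of 1.58 on the log2 scale over 5 pairs, and neither of its 2 high values was met again 24 h later.

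miR-153-3p went from 86.2 CPM at ZT26 to 440.6 CPM at ZT30, with a median of 219.9 CPM and a CV of 50.5%. The libraries next to each other in time, ZT22, ZT26 and ZT30, held 374.9, 86.2 and 440.6 CPM. Same-phase libraries differed by a mean of 1.31 on the log2 scale. miR-138-5p ran from 53.8 CPM at ZT26 to 196.4 CPM at ZT6, with a median of 171.9 CPM, and miR-138-2-3p from 5.2 CPM at ZT26 to 22.8 CPM at ZT6, with a median of 10.3 CPM. Both arms of miR-138 thus had their lowest and highest values in the same 2 libraries.

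miR-129-5p was high in the first 3 libraries and lower in every later one. It was at 356.6 CPM at ZT2, 448.2 CPM at ZT6 and 352.5 CPM at ZT10, and at 145.1 to 201.7 CPM in all 8 later libraries. The 2 ranges did not overlap, and the same phases of the next cycle, ZT26, ZT30 and ZT34, had 161.3, 163.2 and 198.9 CPM. miR-129-2-3p, in contrast, was the steadiest member, with 78.4 CPM at ZT10 as its lowest, a median of 124.0 CPM and 164.1 CPM at ZT2 as its highest, and a CV of 22.5%. The ratio of miR-129-5p to the 3p arms was accordingly 1.97 to 4.21 in the first 3 libraries and 1.08 to 1.84 in the later 8. This split of times was noticed in the values and was not tested.

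miR-218-5p was also highest at the start, with 416.1 CPM at ZT2, 301.7 CPM at ZT6 and 281.4 CPM at ZT14, and was lowest at ZT34 with 114.9 CPM. Its median was 173.4 CPM and its mean was 252 CPM in the first cycle and 149 CPM in the second. miR-129-1-3p ranged from 3.7 CPM at ZT26 to 16.7 CPM at ZT2, with a median of 8.5 CPM.

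Part of the swings went with single libraries. In the ZT26 library all 8 members were under their medians and 5 of 8 were at their lowest, while 70.6% of all 357 tested miRNAs were under their medians and 35.9% at their lowest. The ZT26 library was the deepest, and the members' sum there was 526 CPM. At ZT2 no member was under its median and 3 were at their highest, beside 28.3% of all tested miRNAs under their medians and 23.0% at their highest. The members' sum at ZT2 was 1530 CPM. Over the course, 7 of the 8 members had a CV above the median of 31.2% over all tested miRNAs, and the members' median CV was 45.3%.

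**Figure D4:**
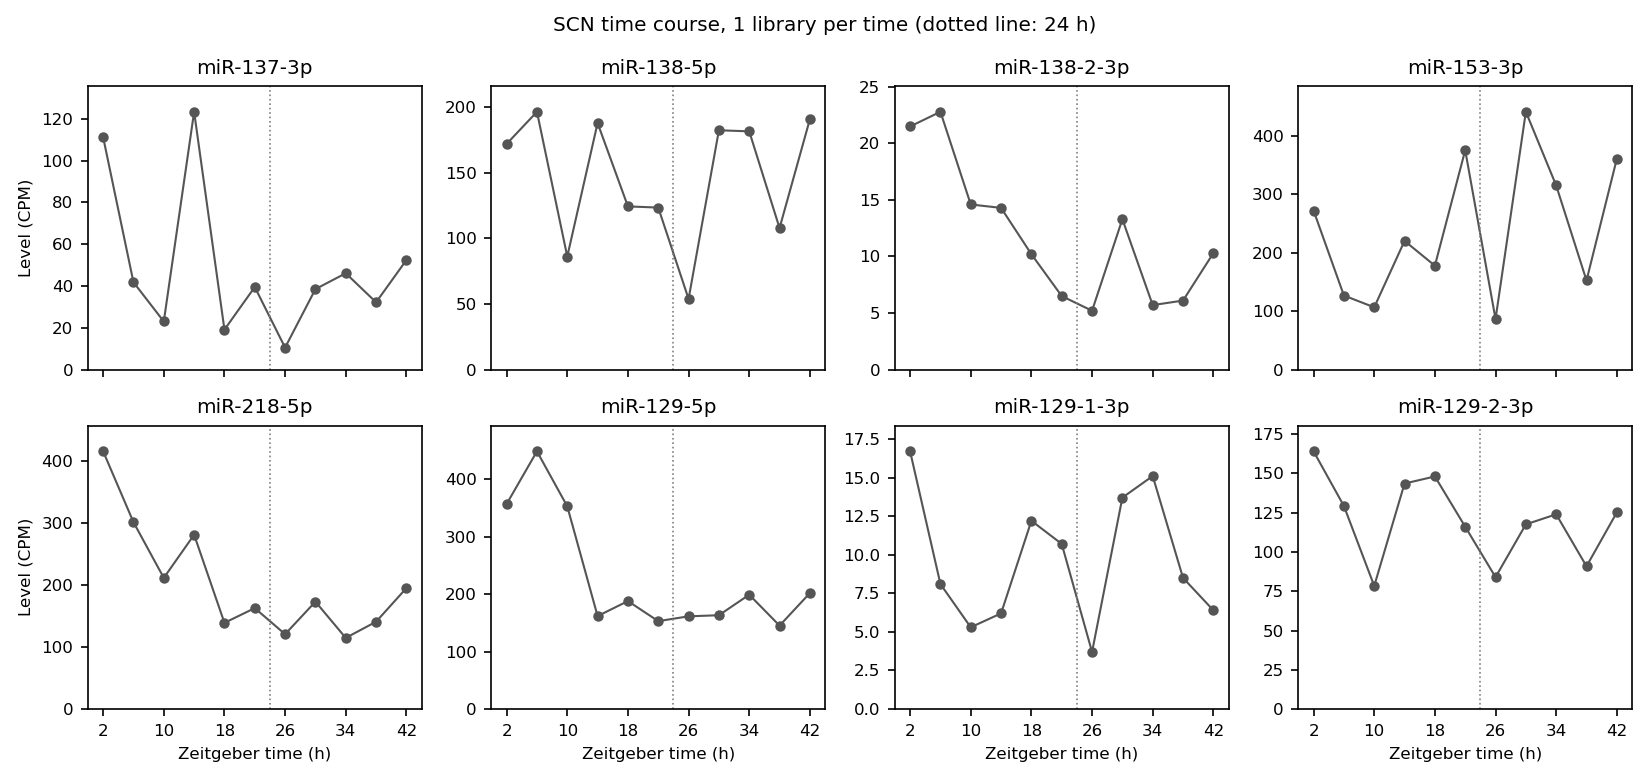
Level of each member (CPM, linear axis from 0 in each panel) against zeitgeber time in h in the 11 libraries of the SCN course, 1 library per time, with a dotted line after the first 24 h. miR-129-5p lies at 352.5 to 448.2 CPM up to ZT10 and at 145.1 to 201.7 CPM after it, and most members dip at ZT26.

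At CT18, LP and CTRL libraries overlapped for every tested member and no member was called, beside 0% of 317 tested miRNAs by limma, of which 1 had an unadjusted p under 0.05. Of the 8 members, 6 were tested, since miR-218-5p and miR-129-1-3p missed the filter. None of the 6 had an unadjusted p under 0.05, all had an adjusted p of 0.992 by limma, and standard errors of 0.22 to 0.64 on the log2 scale set what this part could show. Libraries of the 2 groups did not overlap for 18.6% of all tested miRNAs.

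miR-137-3p was at 95.1 and 133.1 CPM in CTRL and 195.4 and 88.1 CPM in LP, so the LP libraries held both its highest and its lowest value. miR-129-5p was at 639.1 and 624.7 CPM in CTRL and 1056.4 and 564.8 CPM in LP, again on either side of CTRL, with a log2 difference of 0.29 ± 0.32. Without LP 2, 21 miRNAs were called and miR-129-5p was among them, at 0.74 (adjusted p = 0.0489 by limma), so that 1 library decides these counts. miR-138-5p was the steadiest, at 249.4 and 246.0 CPM in CTRL and 263.4 and 223.3 CPM in LP, a log2 difference of -0.03 ± 0.22.

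The vesicle-linked miR-153-3p was at 82.2 and 198.9 CPM in CTRL and 204.4 and 119.8 CPM in LP. miR-129-2-3p was at 234.8 and 194.7 CPM in CTRL and 288.9 and 192.3 CPM in LP. miR-138-2-3p was at 6.7 and 11.3 CPM in CTRL and 5.0 and 11.5 CPM in LP, and miR-129-1-3p at 3.9 and 2.0 CPM in CTRL and 6.7 and 8.5 CPM in LP. In all but the last the replicates of a group spanned the other group's values in part, and miR-129-1-3p, which lay higher in both LP libraries, was too low to be tested.

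miR-218-5p set the CT18 libraries apart from all other SCN tissue. It was at 4.5 and 2.5 CPM in CTRL and 9.0 and 3.4 CPM in LP, where the SCN tissue libraries had 138.1 and 170.5 CPM and no library of the course fell under 114.9 CPM. The mean of the course was 58.7 times and that of SCN tissue 44.1 times the CTRL mean. It ranked 386 of 610 listed miRNAs in CTRL. The 3p arm of the Mir218-1 hairpin, miR-218-1-3p, was at 1.5 to 4.7 CPM at CT18 and 0.5 to 4.7 CPM along the course. These levels rested on 3 to 14 reads per library at CT18 and 2 to 13 along the course, which hides small differences. This arm had no gap as large as that of miR-218-5p, since its course mean was 1.14 times its CTRL mean. The ratio of miR-218-5p to miR-218-1-3p was 0.723 to 2.73 at CT18 and 50.4 to 235 along the course. In SCN tissue it was 19.5 in SCN 1 and 131 in SCN 2. The VIP libraries disagreed. VIP 1 had 370, on 1 read of miR-218-1-3p, and VIP 2 had 0.141, on 3 reads of miR-218-5p.

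Other abundant miRNAs had such gaps too. Of 165 miRNAs with a mean of at least 100 CPM in the course, 12, or 7.27%, were at least 20-fold lower in CTRL. These 12 include miR-218-5p itself, and among the others were miR-24-3p, 206-fold lower, and miR-22-3p, 148-fold lower. The other members had no such gap, and miR-138-5p, miR-129-5p and miR-129-2-3p were higher in all 4 CT18 libraries than in any library of the course. miR-137-3p was at 88.1 to 195.4 CPM at CT18 and 10.5 to 123.4 CPM along the course, and miR-129-5p was at 564.8 to 1056.4 CPM at CT18. The 2 parts of the study share no group that would allow a test, so CT18 sampling and anything else that differed between the parts cannot be told apart.

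The miRNAs with the profile nearest to each member were found by the root mean square difference of log2 levels over the 9 groups, each profile centred on its own mean, where 0 would be the same profile. miR-137-3p was nearest to let-7a-1-3p and let-7c-2-3p, both at 0.682, which had equal values in every library, and miR-138-5p was nearest to miR-137-3p at 0.839. Among the members alone, miR-137-3p and miR-138-5p were each other's nearest, and so were miR-129-5p and miR-129-2-3p, at 1.06. miR-153-3p was nearest to miR-136-3p at 0.521, and miR-218-5p had no close neighbour, with miR-31-5p at 1.19. miR-129-5p and miR-129-2-3p had the closest neighbours, miR-323-3p at 0.328 and miR-140-3p at 0.368. Next to miR-129-1-3p came miR-425-5p at 0.783, and next to miR-138-2-3p came miR-671-5p at 0.925. The second neighbours were let-7a-1-3p at 1.17 for miR-138-5p, miR-434-5p at 0.643 for miR-153-3p, miR-1983 at 1.35 for miR-218-5p, miR-341-3p at 0.389 for miR-129-5p and miR-369-5p at 0.474 for miR-129-2-3p. For miR-129-1-3p and miR-138-2-3p they were miR-541-3p at 0.901 and miR-135b-5p at 1.20. Groups from 1 part of the study share their preparation, and these distances are descriptions.

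Other miRNAs known at synapses were followed as a list of 20, of which 19 were tested in tissue. In SCN against hypothalamus, 4 rose, 11 fell and 4 did not pass, with a median log2 difference of -0.44, beside 28% higher, 42.9% lower and a median of -0.29 over all tested miRNAs. miR-125b-5p, which acts on spine shape, was 2.24-fold higher in SCN, miR-135a-5p was 4.63-fold lower and the neuronal miR-9-5p was 2.42-fold lower. Against cortex 3 rose, 13 fell and 3 did not pass, with a median of -0.70, beside 41.3%, 38.9% and 0.06 over all. miR-128-3p, known for lowering neuronal excitability, was 8.08-fold lower, miR-9-5p 5.48-fold lower and miR-125b-5p 3.40-fold higher. In hypothalamus against cortex 5 rose, 9 fell and 5 did not pass, beside 41.8% and 16.4%.

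In neurons 18 of the 20 were tested. AVP against VIP gave 3 higher, 10 lower and 5 that did not pass, with a median of -1.70, beside 18%, 14.8% and 0.26 over all tested miRNAs. miR-329-3p, which had the smallest p of the list, was at 0 in both AVP libraries and at 1283 to 2468 CPM in VIP, and miR-128-3p was 44.7-fold lower in AVP. AVP against CCK gave 0 higher, 6 lower and 12 that did not pass, beside 2.62% higher and 14.1% lower of all. VIP against CCK gave 4 higher, 2 lower and 12 that did not pass, beside 8.2% and 21.6%. Of the 17 tested at CT18 and the 17 tested along the course, limma called none. Of 5 further arms from the members' own hairpins, 4 were listed, and none passed the filter in any comparison.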

How the data were processed

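Small-RNA libraries of mouse brain were analysed from 1 deposited table per library. Per the submitters' processing notes, the authors used Bowtie and the GRCm38 (mm10) genome, with no version given. The deposited signal per mature miRNA is a read count scaled by the authors to a total of about 1e+07 per library, as the file totals show, and values step in whole reads, from which the depth of 469808 to 5133920 reads was read. A miRNA that a table does not list was set to 0. The 8 members and the lists of other miRNAs were chosen with earlier results of these data known. Groups came from the sample titles.

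Tests used limma 3.58.1 with a trended prior in R 4.3.3 on log2(deposited value + 1), with 1 model per part of the study. In neuron libraries 1 read was worth a deposited value of 3.56 to 21.3. A log2 difference that involves a 0 there depends on the added 1 and can exceed what the reads bear out. The filter was a deposited value no lower than 100, or 10 CPM, in 2 or more of the fitted libraries (3 along the course), and p-values were two-sided and adjusted by Benjamini-Hochberg over all tested miRNAs, with a threshold of 0.05. The scripts were tested on simulated data. Folds are ratios of mean CPM. Bounds use 3 reads over the group at 0. Intervals of ratios of reads are exact binomial at 95%. All members were named. For each member the 2 nearest profiles were named, among miRNAs at 10 CPM or more in at least 14 libraries and with 0.1 CPM added, and for each list up to 3 miRNAs of smallest p. Vascular, oligodendrocyte, microglia and leukocyte, erythrocyte, and choroid plexus and ciliated cell miRNAs were summed as markers. Alternatives were the pseudocount, the filter, the scaling, the replicate block, the groups in the fit and each library left out.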

Additional observations from a re-analysis of the deposited data

How the results depend on the processing

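Over the 657 values of members under alternatives, 595 kept direction and side of the threshold, 27 lost and 7 gained the call and 28 reversed. A filter at 100 CPM left 186 called miRNAs in SCN against cortex, 33 in AVP against CCK, and 2, 0 and 0 called members in AVP against VIP, AVP against CCK and VIP against CCK. Quantile scaling left 56 called miRNAs and 1 member in VIP against CCK and 0 members in AVP against CCK, and median-ratio scaling 1 member in VIP against CCK. Same-numbered replicates shared only a number (correlations of their deviations -0.0891 to 0.25), and the replicate block left 46 called miRNAs and 1 member in VIP against CCK. Leaving out 1 library each gave 2 to 3 members in AVP against VIP, 0 to 69 miRNAs and 0 to 1 members in AVP against CCK, 1 to 65 and 0 to 1 in VIP against CCK, and 0 to 21 and 0 to 1 at CT18. Higher and lower calls were 128 and 134 with median-ratio scaling and 134 and 137 with quantile scaling in SCN against hypothalamus, 96 and 104, and 79 and 93, in hypothalamus against cortex, 38 and 31, and 30 and 26, in VIP against CCK, and 35 and 62 with median-ratio scaling in AVP against VIP.

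Reversals concerned differences that were not called. Median-ratio and quantile scaling gave -0.25 and -0.23 for miR-137-3p and -0.024 and -0.030 for miR-129-2-3p in hypothalamus against cortex. Quantile scaling gave 1.15 for miR-138-2-3p and 0.22 for miR-153-3p in AVP against CCK, and 1.14 for miR-129-1-3p in VIP against CCK. With 1 library left out, miR-129-1-3p ranged from -0.19 to 0.29 in SCN against hypothalamus. In hypothalamus against cortex miR-153-3p ranged from -0.54 to 0.29 and miR-129-5p from -0.13 to 0.11. In AVP against VIP miR-153-3p ranged from -1.05 to 0.20. In AVP against CCK miR-138-5p ranged from -9.45 to 0, miR-153-3p from -0.65 to 0.15 and miR-129-1-3p from -1.95 to 3.96. In VIP against CCK miR-137-3p ranged from -0.21 to 0.39, miR-138-5p from -0.82 to 8.63 and miR-153-3p from -0.45 to 0.80. At CT18 the ranges were -0.35 to 0.80 for miR-137-3p, -0.15 to 0.089 for miR-138-5p, -0.57 to 0.40 for miR-138-2-3p, -0.35 to 0.93 for miR-153-3p, -0.16 to 0.74 for miR-129-5p and -0.15 to 0.43 for miR-129-2-3p. The cause was not tested. Where 1 library was left out of a pair, the lone library is assumed to vary like the other groups. The planned edgeR and DESeq2 fits were not run. The neuron libraries' floors of up to 6.39 CPM limit what a 0 there shows.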

Other observations

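The marker lists gave 2 further contrasts between groups. Microglia and leukocyte miRNAs summed to 2084 to 2297 CPM in SCN, 3895 to 3905 CPM in hypothalamus and 4419 to 4543 CPM in cortex. Of the 4 tested, 3 were lower and 1 was higher in SCN against either tissue. The latter, miR-150-5p, had means of 505 CPM in SCN, 262 CPM in hypothalamus and 355 CPM in cortex. miR-21a-5p had 1312 CPM in hypothalamus and 1063 CPM in cortex. The list summed to 117 to 469 CPM over the 6 neuron libraries. Erythrocyte miRNAs summed to 2107 to 2164 CPM in AVP, 943 to 1170 CPM in VIP and 980 to 1015 CPM in CCK neurons. In SCN tissue they summed to 486 to 583 CPM in the first part of the study and 904 to 1402 CPM along the course. The AVP sum was miR-486-5p alone, and miR-451a was at 0 in both AVP libraries and at 25.6 to 33.8 CPM in SCN. Vascular miRNAs summed to 929 to 1603 CPM in the CT18 libraries and 3236 to 6331 CPM along the course. The members of that list did not move together. Means of miR-126-3p were 10.6 CPM in CTRL and 864 CPM along the course, and those of miR-143-3p 322 and 3210 CPM. In contrast, miR-126-5p, miR-145a-5p and miR-145a-3p had higher means at CT18, with miR-126-5p at 292 CPM in CTRL and 99.2 CPM along the course.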
